A study of Mus musculus with 12 samples.

Results

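The 2'-5'-oligoadenylate synthetases (OAS) are the genes described here: Oas1a, Oas1b, Oas1g, Oas2, Oas3, Oasl1 and Oasl2 of the mouse. They were found by mapping the RefSeq accession of each non-control array probe to a mouse symbol. Of the 7 genes, 6 had a probe (8 probes in all), and all 6 were among the 24184 genes or transcripts tested. Oas1b, in mice known for a full-length form that protects against flaviviruses, was not analysed here.

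OAS proteins bind double-stranded RNA and then join ATP into short chains of adenosine linked 2' to 5', called 2-5A. The chains act as a signal in antiviral defence, at whose end cellular and viral RNA is cut and protein synthesis slows. The genes are kept low in most cells and are switched on by type I interferon through a complex with STAT2 and IRF9 that binds a DNA element called the ISRE. DICER1, the enzyme transfected in this study, also acts on double-stranded RNA: it cuts miRNA precursors, and the residues altered in D1709N and G1809R lie in its RNase IIIb domain.

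The RNA came from DKO172, a mouse cell line grown from a fallopian tumor of a female, in 4 groups of 3 single-colour arrays. Cells had received a plasmid (pLD-hygro-EnVM) coding for DICER1 D1709N, for DICER1 G1809R, for wild-type DICER1 (WT) or for GFP, the control. All groups were treated alike: 200000 cells per well were given 2 µg of plasmid, moved to new plates after 24 h, kept for 84 h under selection (300 µg/ml hygromycin), and lysed for RNA at 108 h. The labels do not give the line's own Dicer1 genotype or the plasmid's promoter. All arrays share this 1 line. No label says that the replicates came from separate cultures, so a p-value here measures a spread between arrays that could be technical.

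The arrays were spread over 2 slides, the first with the 4 arrays numbered replicate 1 and the second with the other 8. The share of probes well above background ranged from 49.5% to 82.7% by array. WT replicate 1 stood apart by the highest share (82.7%). It had correlations of 0.977 and 0.980 with the other WT arrays. Replicate 1 of the other groups had 0.981 to 0.984 with its own group, and replicates 2 and 3 of each group had 0.989 to 0.993 with each other. Results of the OAS genes that use WT, and the main ones of the other lists, are also given without WT replicate 1. The 1 Dicer1 probe is for the mouse gene, and whether the inserts contain its target is not known here, so it checks no label. Its log2 level averaged 0.82 ± 0.18 with D1709N, 0.93 ± 0.24 with G1809R, 0.27 ± 0.23 with WT and 1.13 ± 0.20 with GFP (SD, n = 3 each). Of 8 epithelial markers 6 were tested, and 0 were called for WT against GFP, with or without the replicate block described below. With the block, 3 were called higher for D1709N against WT (7.12% of all genes) and 1 for G1809R against WT (6.36%). Against GFP, 1 was called higher with the block for D1709N (1.76%) and 0 for G1809R. Of 7 mesenchymal markers 7 were tested, and they did not move one way with WT against GFP. Pdgfra fell (−0.91 ± 0.12, limma adjusted p = 0.00740), and with the replicate block described below Vim fell too (−0.77 ± 0.33, 0.000920) while Pdgfrb (0.74 ± 0.21, 0.00800) and Thy1 (0.69 ± 0.32, 0.00979) rose. With the block, 2 of the 7 were called lower against GFP for D1709N (601 of 24184 genes) and for G1809R (480). Against WT, 2 were called higher and 2 lower for D1709N (7.12% and 8.42% of all genes) and for G1809R (6.36% and 6.31%). Without the block, 1 was called lower for D1709N against WT (0.67%). The part of these shifts in the OAS differences was not tested. Pax8 and Foxj1, which mark the secretory and ciliated cells of the oviduct, were each above background on 1 array of each group. Of 9 leukocyte markers, 4 were tested, 0 were called against GFP with or without the block (0 and 1 at an unadjusted p under 0.05 in each such comparison), and Ptprc was above background on 1 array in each DICER1 group and on 2 GFP arrays. Of all 24184 genes, 4300 were called with the block for WT against GFP, 1027 for D1709N and 904 for G1809R. With so few epithelial and leukocyte markers tested, counts of 0 say little about cell content. Itgam, Csf1r and Cd3e were above background on all 12 arrays. Against WT, Csf1r was higher with the block for D1709N (1.19 ± 0.43, adjusted p = 0.00790) and for G1809R (1.098 ± 0.43, 0.0116).

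The promoters of the genes are shown because OAS genes are known as targets of an interferon element. RefSeq windows (build GRCm38.p6, from 250 bases before to 50 bases after each gene's start) were found for 5 of the 7 genes, all on chromosome 5. Each was searched on both strands for the ISRE core GAAANNGAAA. The core was present in 3 of the 5 windows, and 1131 of 32851 promoter windows held it (3.44%). The windows below run 5' to 3' along each gene's own strand, and capitals mark the core.

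Oas1a, chr5:120907476-120907775, minus strand: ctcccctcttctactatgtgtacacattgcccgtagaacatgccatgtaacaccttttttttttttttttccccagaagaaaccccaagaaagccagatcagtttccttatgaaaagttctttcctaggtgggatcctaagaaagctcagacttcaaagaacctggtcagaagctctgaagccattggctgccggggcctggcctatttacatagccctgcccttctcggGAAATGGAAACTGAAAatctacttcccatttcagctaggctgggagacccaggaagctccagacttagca

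Oas1g, chr5:120887564-120887863, minus strand: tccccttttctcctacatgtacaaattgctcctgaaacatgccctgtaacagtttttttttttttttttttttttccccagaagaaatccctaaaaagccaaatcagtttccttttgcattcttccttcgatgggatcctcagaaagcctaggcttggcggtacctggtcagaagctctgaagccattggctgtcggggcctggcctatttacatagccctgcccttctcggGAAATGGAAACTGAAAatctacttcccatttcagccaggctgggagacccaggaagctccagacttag

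Oas3, chr5:120777610-120777909, minus strand: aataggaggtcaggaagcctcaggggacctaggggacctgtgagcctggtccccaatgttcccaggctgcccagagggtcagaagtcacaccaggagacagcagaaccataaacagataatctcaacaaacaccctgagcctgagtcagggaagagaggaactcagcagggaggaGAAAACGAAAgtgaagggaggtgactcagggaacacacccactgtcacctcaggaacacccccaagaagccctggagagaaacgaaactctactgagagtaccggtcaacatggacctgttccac

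Oasl1, chr5:114922990-114923289, plus strand: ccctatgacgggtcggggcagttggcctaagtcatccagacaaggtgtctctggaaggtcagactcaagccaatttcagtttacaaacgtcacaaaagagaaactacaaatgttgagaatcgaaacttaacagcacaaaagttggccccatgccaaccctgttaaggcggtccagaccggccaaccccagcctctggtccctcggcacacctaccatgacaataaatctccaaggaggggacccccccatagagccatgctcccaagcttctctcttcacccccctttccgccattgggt

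In Oas1a the capitals hold 2 overlapping matches, the first at bases 231 to 240 of the window and the second at bases 237 to 246, so that they begin at −20 and −14 relative to the gene's start. Oas1g carried the same letters at bases 233 to 242 and 239 to 248. The Oas1a and Oas1g windows were identical at 261 of 306 aligned positions (85.3%). Oas3 had 1 match, at bases 176 to 185, beginning at −75. A related element with a single spacer base, GAAANGAAA, was found in the Oas3 window among the 5 and in 3.17% of all windows. The Oasl1 and Oasl2 windows held neither, which says only that these letters are not in these windows. Of the other OAS1 paralogues, 3 had a window, and Oas1c carried 2 overlapping core matches on the opposite strand.

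All levels below are log2 intensities relative to the 75th percentile of the same array, so they compare arrays for 1 probe and not probes with each other. All 6 measured OAS genes had their highest mean level with WT, their next highest with G1809R, then D1709N, and their lowest with GFP. The level of an array is an average over its cells, so fewer cells with the RNA and less RNA per cell cannot be told apart. Arrays with the same replicate number deviated together, and the test was therefore also run with the replicate number as a block. Only where a gene passed 1 of these tests (limma, adjusted p under 0.05) is it said to have risen or fallen.

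Oas1a codes for an active synthetase in the mouse. It stood at 4.20, 5.56 and 4.32 with D1709N (replicates 1, 2 and 3), at 4.58, 5.93 and 4.33 with G1809R, at 6.24, 6.15 and 4.48 with WT, and at 2.197, 3.996 and 2.23 with GFP. Every DICER1 array was above every GFP array, and within the D1709N, G1809R and GFP groups replicate 2 was the high one. A second Oas1a probe read 1.68, 3.06 and 1.88 with D1709N, 2.10, 3.71 and 2.17 with G1809R, 3.85, 4.12 and 2.05 with WT, and −0.36, 1.74 and −0.07 with GFP. On that probe too, WT replicates 1 and 2 were high, WT replicate 3 was not, and GFP replicate 2 overlapped with D1709N replicate 1. The OAS1 paralogues are near copies of each other, so a probe may also read RNA of a neighbour; this was not tested.

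Oas1g, likewise an active synthetase in the mouse, was measured near background. Its levels were −4.81, −3.65 and −5.16 with D1709N, −4.09, −2.99 and −4.34 with G1809R, −2.003, −2.63 and −5.24 with WT, and −6.51, −5.65 and −7.76 with GFP. The probe was well above background on 2 D1709N arrays, on all 3 arrays of G1809R and of WT, and on 1 GFP array. All DICER1 arrays lay above all GFP arrays. A further Oas1g probe was above background on no array.

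Oas2 codes for a larger synthetase with a duplicated catalytic unit. Its levels were 0.41, 3.19 and 0.42 with D1709N, 1.16, 3.83 and 0.82 with G1809R, 4.23, 4.23 and 0.72 with WT, and −1.93, 0.55 and −1.89 with GFP. The 2 high WT arrays were nearly equal, and WT replicate 3 lay about where D1709N replicates 1 and 3 lay. GFP replicate 2 was above D1709N replicates 1 and 3, so those groups overlapped.

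Oas3, the largest synthetase, which binds long double-stranded RNA, was again dim. It had levels of −4.09, −4.09 and −5.51 with D1709N, −3.42, −3.09 and −4.53 with G1809R, −1.94, −1.09 and −4.69 with WT, and −4.27, −6.07 and −7.41 with GFP. It was well above background on 2 D1709N arrays, on all G1809R and WT arrays and on 2 GFP arrays. GFP replicate 1 was above replicate 3 of each DICER1 group, so Oas3 was the 1 gene of the 6 in which WT and GFP arrays overlapped.

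Oasl1 codes for an OAS-like protein without synthetase activity that in mice holds back translation of the Irf7 mRNA. Its levels were 0.47, 2.37 and 0.82 with D1709N, 1.17, 3.10 and 1.496 with G1809R, 4.26, 3.94 and 1.66 with WT, and −1.67, 0.27 and −1.21 with GFP. Each DICER1 array was above each GFP array. In each replicate the order was WT, G1809R, D1709N and GFP from high to low.

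Oasl2 codes for an OAS-like protein with ubiquitin-like repeats that keeps synthetase activity in the mouse. It stood at 0.91, 3.08 and 0.92 with D1709N, 2.04, 3.84 and 1.60 with G1809R, 3.72, 3.73 and 0.98 with WT, and −2.46, 0.78 and −1.97 with GFP. No DICER1 array overlapped with the GFP arrays. In replicates 2 and 3 it was higher with G1809R than with WT.

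**Figure D1:**
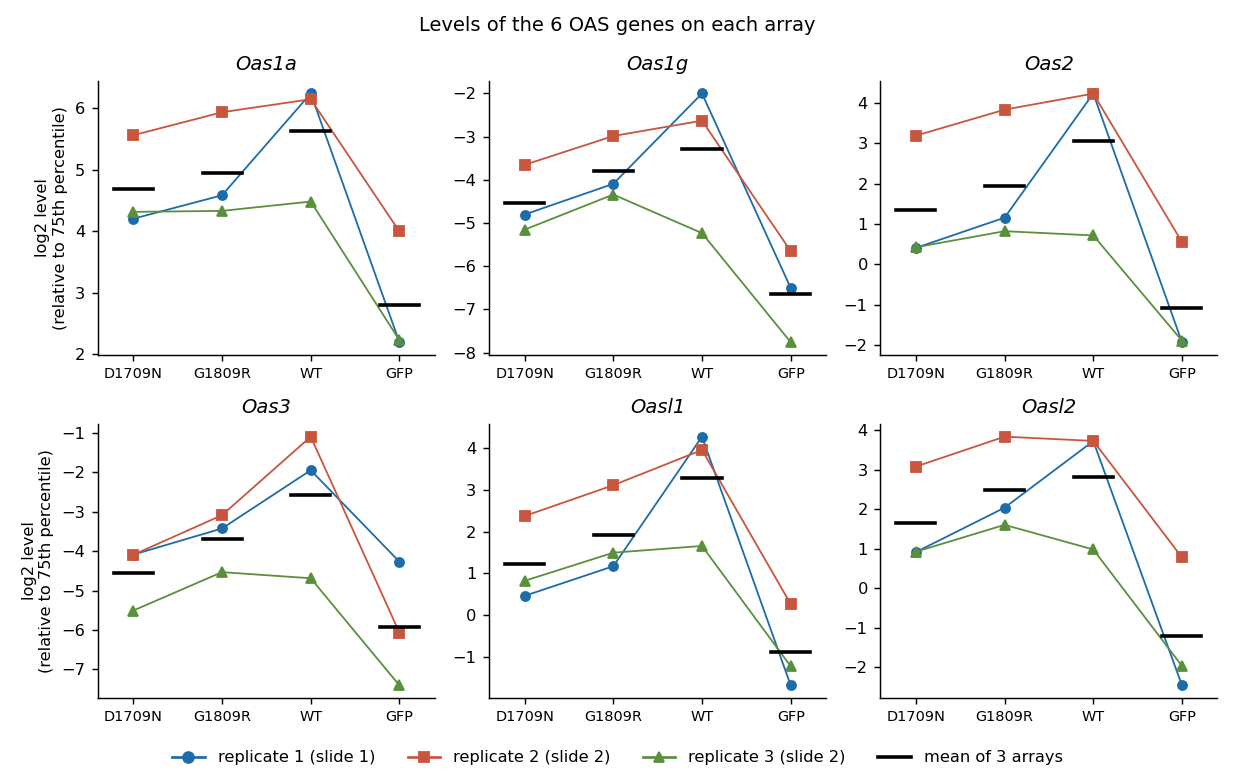
Log2 level of the 6 measured OAS genes on each of the 12 arrays (vertical axis, relative to the array's 75th percentile), with the 4 groups along the horizontal axis, a line joining arrays of the same replicate number and a bar at the mean of 3 arrays. Replicate 2 is above replicate 3 in every group and gene, and WT replicate 1 is level with or near WT replicate 2.

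With WT against GFP, Oasl1 rose by 4.16 ± 0.84 on the log2 scale (SE, 17.8-fold, limma adjusted p = 0.0318), with pairs of the same replicate number at 5.93, 3.67 and 2.87. It was the only 1 of the 6 genes called, against 1.19% of all tested genes called higher. All 6 had an unadjusted p under 0.05, as did 3723 of the 24184 genes. With the replicate block 6 of 6 were called, against 9.18% of all genes. Oas1g and Oas3, however, passed the filter on dim probes only through the G1809R and WT arrays, where they are high, so counts and medians that include them describe the data and support no direction. Of the 4 genes above background on all 12 arrays, 1 was called with WT, and 4 with the block. All 6 were higher in 3 of 3 pairs, which held for 29.8% of all genes, and the arrays of 5 of 6 did not overlap, which held for 9.64%.

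The other rises with WT passed with the replicate block and not without it. Oas2 was higher by 4.15 ± 1.25 (17.7-fold), with an adjusted p of 0.119 in limma and 0.00337 with the block. For Oasl2 the difference was 4.03 ± 1.08 (16.3-fold), with adjusted p-values of 0.0831 and 0.00250 in the same order. Oas1a was higher by 2.82 ± 0.68 (7.04-fold, 0.0595 and 0.00163). These 3 probes were well above background on all 12 arrays.

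The 2 dim genes gave differences that depend on the background correction. Oas1g was higher with WT by 3.35 ± 0.84 (limma adjusted p = 0.0682, and 0.00289 with the block), and by 1.59 after normexp background correction. Only 1 GFP array measured it above background, so the size of its differences from GFP, with the mutants too, is uncertain. Oas3 was higher by 3.34 ± 1.00 (0.117 and 0.00409), and by 1.86 after normexp. The median of the 6 genes was 3.69, and 4.09 for the 4 bright ones, against 0.04 over all genes tested. By pair it was 5.22 for replicate 1, on slide 1, and 3.35 and 2.66 for replicates 2 and 3, on slide 2.

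The array that stood apart was then left out. Without WT replicate 1 the 6 differences lay between 2.51 and 3.67 in the fit without the block, with 0 called (0.43% of all genes were called higher). With the block they lay between 2.26 and 3.42, with 6 called. The single call without the block, Oasl1, was kept in 6 of 12 fits, each with another array left out, with adjusted p-values between 0.0210 and 0.123. It was lost without D1709N replicate 3 (0.0531), G1809R replicate 3 (0.0508), WT replicate 1 (0.101) or 2 (0.115), or GFP replicate 1 (0.121) or 3 (0.123). Without WT replicate 3, 4 genes were called (0.98% of all genes called higher), and without GFP replicate 2, 2 were called (0.649%). With the block, 6 of 6 were called in each of those 12 fits, and 3 of 6 when all 4 arrays of replicate 2 were left out. Here and below, the share of all genes called is not given for blocked fits with arrays left out. That share can move too, so such counts describe the fits and support nothing particular to the OAS genes.

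Whether the WT effect differed between slides was tested as an interaction. The WT minus GFP difference was larger on slide 1 for 5 of the 6 genes, by 1.73 to 3.23, and the value for Oas3 was −1.53. None of the 6 passed (limma adjusted p = 1 for each), and 0 of 24184 genes did, with 1132 at an unadjusted p under 0.05. With slide 1 holding 1 array of each group, that test has little precision.

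With G1809R against GFP, 5 of the 6 genes rose with the replicate block, against 1.75% of all genes. All 4 of the bright genes were among them. The other was Oas1g, which passed the filter on dim probes only through the G1809R and WT arrays, where it is high. Its call therefore supports no direction. Oasl2 was higher by 3.71 ± 1.08 (13.1-fold, limma adjusted p = 0.499 and 0.0170 with the block). Its pairs were at 4.50, 3.05 and 3.57. Oas2 was higher by 3.02 ± 1.25 (0.0401 with the block), Oas1g by 2.83 ± 0.84 (0.0231), Oasl1 by 2.79 ± 0.84 (0.0324) and Oas1a by 2.14 ± 0.68 (0.0210). Oas3, at 2.24 ± 1.00, had 0.0571 with the block.

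Without the block, limma called 0 of the 6 genes with G1809R, with 0% of all genes called higher and 6 of the 6 genes at an unadjusted p under 0.05, as were 1605 genes in all. All 6 were higher in 3 of 3 pairs, against 28.3% of all genes, and the arrays of 5 did not overlap with GFP, against 6.14%. The median difference was 2.81, against 0.05 over all genes. The pair medians were 2.63, 2.91 and 2.79 and so lay close together. The blocked count was 0 without any 1 of the G1809R arrays, 0 without GFP replicate 2 or 3, 1 without GFP replicate 1, 3 without D1709N replicate 2 or 3, and otherwise 4 to 6. As above, no share of all genes stands beside these counts.

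With D1709N against GFP, 2 of the 6 genes rose with the replicate block, against 1.76% of all genes, and both are bright. These were Oasl2, higher by 2.85 ± 1.08 (7.23-fold, limma adjusted p = 0.591 and 0.0324 with the block), and Oas1a, higher by 1.89 ± 0.68 (3.70-fold, 0.548 and 0.0280). The other blocked values were 0.0505 for Oas1g (2.10 ± 0.84), 0.0664 for Oasl1 (2.09 ± 0.84), 0.0668 for Oas2 (2.43 ± 1.25) and 0.182 for Oas3 (1.35 ± 1.00). Oas3 differed by only 0.18 in the pair of replicate 1, against 1.98 and 1.90 in the others.

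Limma without the block called 0 of the 6 genes with D1709N (0.00827% of all genes were called higher), with 4 of the 6 and 1744 of all genes at an unadjusted p under 0.05. All 6 were higher in 3 of 3 pairs (26.6% of all genes), and 4 did not overlap with GFP (7.77%). Their median difference was 2.10, against 0.03 over all genes. The pair medians were 2.07, 2.05 and 2.2. The blocked count was 0 without any 1 of the D1709N or GFP arrays, 1 without any 1 of the G1809R arrays, and 5 without WT replicate 1 or 3. WT arrays are not part of this difference. Without WT replicate 1 it stayed at 1.89 for Oas1a, while the blocked limma adjusted p went from 0.0280 to 0.000693. No share of all genes is given for these fits, so the counts cannot be read as particular to the OAS genes.

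**Figure D2:**
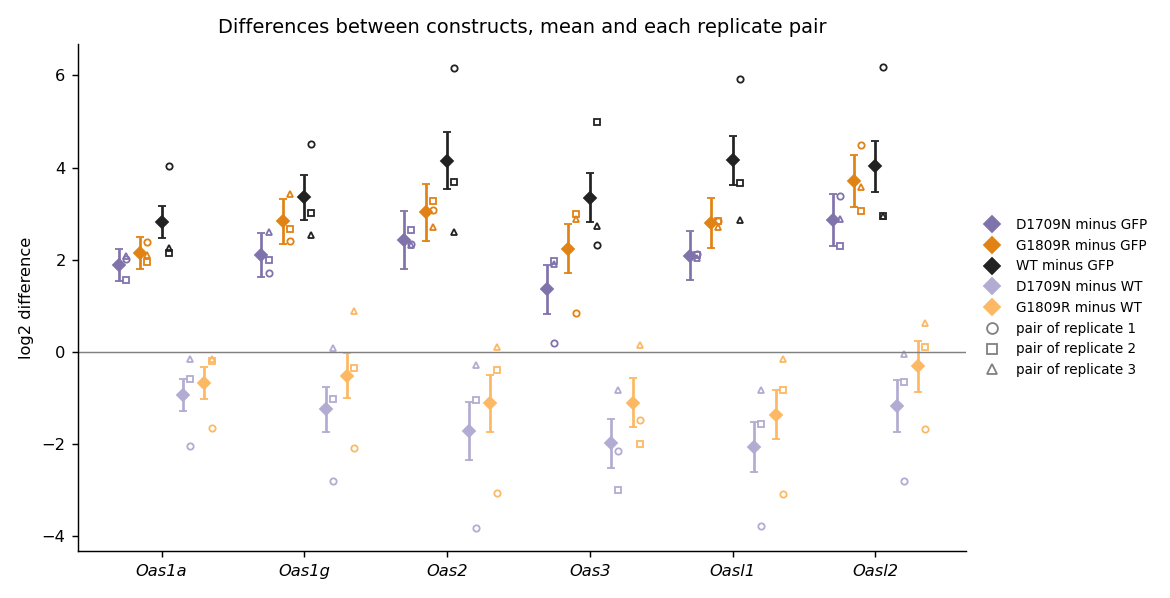
Log2 differences of the 6 OAS genes for D1709N, G1809R and WT against GFP and for both mutants against WT. Diamonds are means of 3 pairs with SE bars from the fit with the replicate block, and open symbols are the 3 replicate pairs; every pair against GFP is above 0, and the pair of replicate 1 gives the largest shortfall of the mutants against WT in 5 of the 6 genes.

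The comparisons with GFP share its 3 arrays, so the mutants were also set against WT directly. With D1709N against WT, Oasl1 differed by −2.07 ± 0.84 (limma adjusted p = 0.305) and fell with the block (0.0349), with pairs of −3.79, −1.58 and −0.83. Oas3 differed by −1.99 ± 1.00 (0.436) and fell with the block (0.0379), with pairs of −2.14, −3 and −0.82. Oas3 was above background on 2 D1709N arrays and passed the filter through WT and G1809R, so this call rests on a gene kept by the group in which it is high. The blocked adjusted p was 0.0992 for Oas2 (−1.72 ± 1.25), 0.108 for Oas1a (−0.93 ± 0.68), 0.119 for Oas1g (−1.25 ± 0.84) and 0.193 for Oasl2 (−1.17 ± 1.08).

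Limma without the block called 0 of the 6 genes lower with D1709N (0.67% of all genes), and 2 with the block (8.42%). At an unadjusted p under 0.05 stood 1 of the 6 without the block, and 3310 of all genes. Lower in 3 of 3 pairs were 5 of 6 (25.5% of all genes), the exception being Oas1g in the pair of replicate 3, at 0.08. The median was −1.48, and by pair it was −2.81, −1.03 and −0.23. Without WT replicate 1 the median was −0.92 in the fit without the block. With the block Oasl1 was then called (−1.196, limma adjusted p = 0.00848) and Oas3 was not (−2.07, 0.0831). The other blocked differences were −0.38 for Oas1a, −0.53 for Oas1g, −0.71 for Oas2 and −0.31 for Oasl2. The blocked count was 0 without any 1 of the D1709N arrays, WT replicate 2 or G1809R replicate 2, 1 without G1809R replicate 3 or GFP replicate 2 or 3, and 4 without WT replicate 3. Again, no share of all genes stands beside these counts.

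With G1809R against WT, 0 of the 6 genes were called lower, by limma (0.604% of all genes) or with the block (6.31%). At an unadjusted p under 0.05 stood 0 of the 6 without the block and 1, Oasl1, with it, and 2950 and 6628 of all genes. Oasl1 had a difference of −1.36 ± 0.84, with a 95% interval from −3.23 to 0.51 in the fit without the block. Its SE with the block was 0.54. Oasl2 had −0.32 ± 1.08, with an interval from −2.72 to 2.09. Only Oas1a and Oasl1 were lower in 3 of 3 pairs (20.3% of all genes). In the pair of replicate 3, Oas1g, Oas2, Oas3 and Oasl2 were higher with G1809R than with WT, by 0.89, 0.10, 0.16 and 0.62. The median was −0.89. Without WT replicate 1 it was −0.45 in the fit without the block, where Oas1g (0.13) and Oasl2 (0.14) were above 0. That fit sets WT replicates 2 and 3 against all 3 G1809R arrays. With the block the differences were then −0.12 for Oas1a, 0.20 for Oas1g and −0.11 for Oas2. They were −1.19 for Oas3, −0.49 for Oasl1 and 0.54 for Oasl2, and 0 of the 6 were called. Without WT replicate 3, 1 gene, Oasl1, was called with the block (adjusted p = 0.0402).

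Between the mutants no OAS gene passed the test. All 6 genes were lower with D1709N than with G1809R in 3 of 3 pairs, against 18.6% of all genes, and the differences lay between −0.88 for Oas3 and −0.26 for Oas1a. Limma called 0 of them and 0% of all genes lower, and so did the fit with the block (0%). At an unadjusted p under 0.05 stood 0 of the 6 in both fits, 65 of all genes without the block and 1063 with it. The 95% interval for Oasl2, at −0.85 ± 1.08, ran from −3.26 to 1.55 in the fit without the block. Its SE with the block was 0.56. The pair medians were −0.71, −0.70 and −0.68.

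Levels of the OAS genes also differed between replicates of 1 group. On slide 2, replicate 2 exceeded replicate 3 by at least 1 on the log2 scale in all 4 groups for 6 of the 6 OAS genes. Of all genes tested, 139 of 24184 did so (0.575%). The gap for Oas2 was 2.76 with D1709N, 3.01 with G1809R, 3.51 with WT and 2.44 with GFP. In Oasl2 it was 2.16 with D1709N, 2.23 with G1809R, 2.75 with WT and 2.75 with GFP. GFP cells, which had received no DICER1 plasmid, showed the gap too. Of the other lists described below, 4 of 9 RNA sensors, 3 of 15 genes of interferon signalling, 1 of 4 OAS1 paralogues and 0 of 3 genes of the 2-5A arm were among the 139.

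In 5 of the 6 genes the WT group differed in its replicate 1. For Oas2, replicate 2 minus replicate 1 was −0.003 with WT, against 2.78 with D1709N, 2.68 with G1809R and 2.48 with GFP. In Oas1a the same difference was −0.09 with WT, against 1.36 with D1709N, 1.35 with G1809R and 1.80 with GFP. Oas1g, Oasl1 and Oasl2 likewise had their smallest such difference with WT. Oas3 went the other way, with 0.85 with WT, against −0.003 with D1709N, 0.34 with G1809R and −1.80 with GFP. What set replicate 2, or WT replicate 1, apart from the others was not tested.

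**Figure D3:**
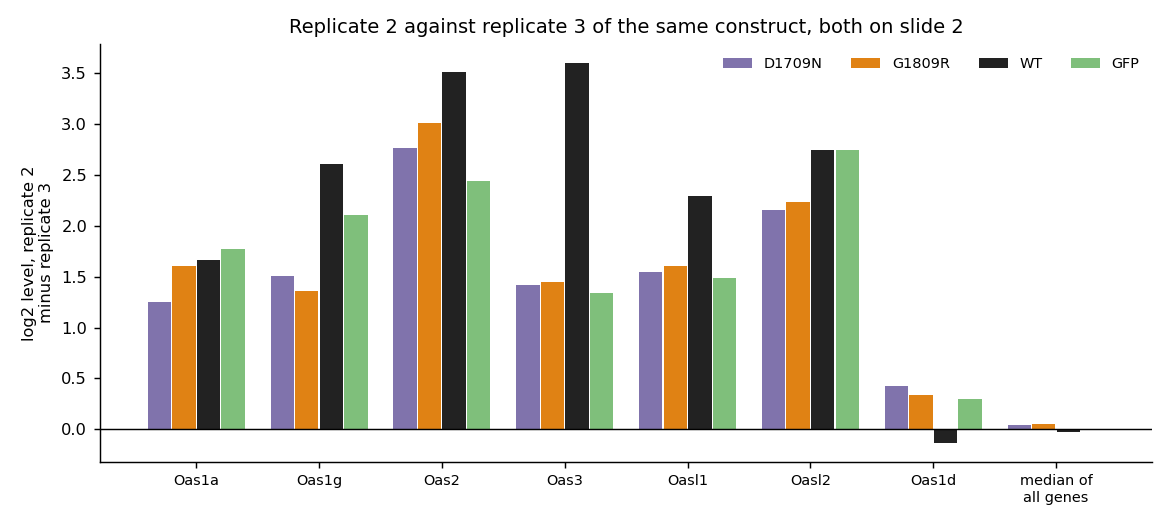
Log2 level of replicate 2 minus that of replicate 3 of the same group, both on slide 2, for the 6 OAS genes, Oas1d and the median of all genes, with 1 bar per group. The OAS genes lie above 1 in all 4 groups, and Oas1d lies between −0.13 and 0.43.

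The 6 genes tracked each other across the 12 arrays. Pearson correlations of their levels ran from 0.735 to 0.989 over the 15 pairs of genes, with the lowest for Oas3 and Oasl2 and the highest for Oas1a and Oasl2. The arrays share groups, slides and replicate numbers, so these values describe the arrays and are given without a test. The genes whose levels were most like the mean of the 6 were Eif2ak2 (r = 0.995 over 12 arrays), Dtx3l (0.995), Parp9 (0.995), Samd9l (0.993) and Helz2 (0.990). Of 13999 named genes compared, 83 had a correlation above 0.9 (0.593%).

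Other OAS1 paralogues lie beside Oas1a and Oas1g, and several are thought to lack synthetase activity. Of 5 on the array 4 were tested, and Oas1h, above background on 1 WT array and 1 GFP array, did not pass the filter. With WT against GFP, Oas1c rose by 2.15 ± 0.47 (limma adjusted p = 0.0413), and with the block Oas1e (1.88 ± 0.49, adjusted p = 0.00512) and Oas1f (2.82 ± 0.69, 0.00204) rose too. Without WT replicate 1 the call for Oas1c was lost (1.94, limma adjusted p = 0.125), and with the block all 3 were still called. Oas1f was the 1 paralogue called with the block for G1809R (2.19 ± 0.69, 0.0231) and for D1709N (1.90 ± 0.69, 0.0324). Of all genes, 1.75% were called higher with the block for G1809R and 1.76% for D1709N. Oas1d, known from the mouse ovary, differed from GFP by −0.11 ± 0.37 with WT, with an interval from −0.95 to 0.72. Its correlation with the mean of the 6 genes was 0.14, against 0.99 for Oas1f.

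Next came the 2-5A arm, genes known to act on the chains or on what follows from them. Pde12, a phosphodiesterase that breaks 2-5A down, differed by −0.05 ± 0.10 between WT and GFP. Abce1, an ATP-binding protein known for splitting ribosomes after translation, differed by −0.19 ± 0.09, and Akap7, whose long form can cleave 2-5A, by 0.26 ± 0.49. In the same comparison the OAS genes had differences of 2.82 to 4.16. Of these 3 genes, limma called 0 in any of the 6 comparisons, with or without the block. Of all 24184 genes, 287 were called higher and 426 lower for WT against GFP, and 4300 were called with the block. With only 3 genes, 0 calls do not set them apart from genes in general. At an unadjusted p under 0.05 stood 0 of the 3 in each comparison without the block, and with it 1 each for WT against GFP, G1809R against GFP and G1809R against WT. In those comparisons with the block, 7674, 5025 and 6628 of all genes stood there, in that order.

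Sensors of double-stranded RNA were the next group. Of 10 genes 9 were tested, Tlr3 being too dim. With WT 1 was called higher (1.19% of all genes) and with the block 8 (9.18%). Ifih1, which codes for the long-RNA sensor MDA5, rose by 3.36 ± 0.73 with WT (limma adjusted p = 0.0410). With the block, rises were also found for Zbp1, a sensor of Z-form nucleic acid (3.37 ± 1.02, 0.00346), Dhx58, coding for LGP2 (3.26 ± 0.99, 0.00233), and Eif2ak2, coding for the kinase PKR (1.70 ± 0.41, 0.00168). Without WT replicate 1, Ifih1 was no longer called without the block (2.89, limma adjusted p = 0.124), and with the block 7 of 9 were called, with 2.63 for Ifih1, 2.65 for Zbp1, 2.54 for Dhx58 and 1.38 for Eif2ak2. Mavs, the adaptor through which MDA5 signals, differed by 0.26 ± 0.18 and was not called. With the block 5 of 9 were called higher for G1809R (1.75% of all genes) and 2 of 9, Ifih1 and Eif2ak2, for D1709N (1.76%).

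In interferon signalling 15 of 16 genes were tested. With WT 1 was called higher (1.19% of all genes) and with the block 6 (9.18%). The 1 call was Ifnb1, which codes for interferon beta. It stood at −4.70, −4.43 and −4.13 with D1709N, −4.12, −3.88 and −3.86 with G1809R, −1.43, −2.64 and −2.57 with WT, and −8.27, −5.31 and −6.49 with GFP. No arrays of different groups overlapped, with WT highest, then G1809R, D1709N and GFP, and Ifnb1 was above background on 1 GFP array. The mutants were barely apart, with their nearest arrays at −4.1272 (D1709N) and −4.1225 (G1809R), and their difference (−0.46 ± 0.62) was not called. Arrays lay above those of GFP without overlap in 9.64% of all genes with WT, 6.14% with G1809R and 7.77% with D1709N. D1709N lay below G1809R without overlap in 363 of 24184 genes. It was higher with WT by 4.48 ± 0.62 (limma adjusted p = 0.00784), by 4.08 (0.0307) without WT replicate 1, and by 2.10 (0.00326) after normexp. With 1 GFP array above background, the size of its differences from GFP is uncertain. It passed the filter on dim probes only through the DICER1 arrays, where it is high. Its calls and its lack of overlap therefore describe the data and support no direction. With the block Ifnb1 had adjusted p-values of 0.0510 for G1809R (2.74 ± 0.62) and 0.0801 for D1709N (2.27 ± 0.62), and it fell with D1709N against WT (−2.20 ± 0.62, 0.0466), a call lost without WT replicate 1 (−1.47, 0.128).

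Ifnb1 differed from the OAS genes in more than 1 respect. Its WT arrays did not overlap with those of either mutant, while those of each of the 6 OAS genes did. Of all 24184 genes, 1833 lay lower without overlap for D1709N against WT, and 1537 for G1809R against WT. The correlation of Ifnb1 with the mean of the 6 genes was 0.82. Its replicate 2 did not exceed replicate 3 in the DICER1 groups, with gaps of −0.30 for D1709N, −0.01 for G1809R and −0.07 for WT. With GFP, where 1 array was above background, the gap was 1.17. Of the transcription factors, Irf7 (2.98 ± 0.73, adjusted p = 0.00170), Stat2 (1.80 ± 0.67, 0.00558) and Irf9 (0.66 ± 0.36, 0.0145) rose with WT in the fit with the block, as did Usp18, a brake on the interferon receptor (3.397 ± 0.95, 0.00267). Irf1 (0.04 ± 0.24), Irf2 (−0.37 ± 0.31) and Irf3 (−0.13 ± 0.16) were not called. Without WT replicate 1 the blocked differences were 2.43 for Irf7, 1.39 for Stat2, 0.48 for Irf9 and 2.66 for Usp18, all still called, and Irf2 (−0.53, limma adjusted p = 0.0190) was called lower. The receptor subunits Ifnar1 (0.03 ± 0.14) and Ifnar2 (0.20 ± 0.12) were not called. With the block 4 of 15 were called higher for G1809R (1.75% of all genes) and 1 of 15, Irf9, for D1709N (1.76%).

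**Figure D4:**
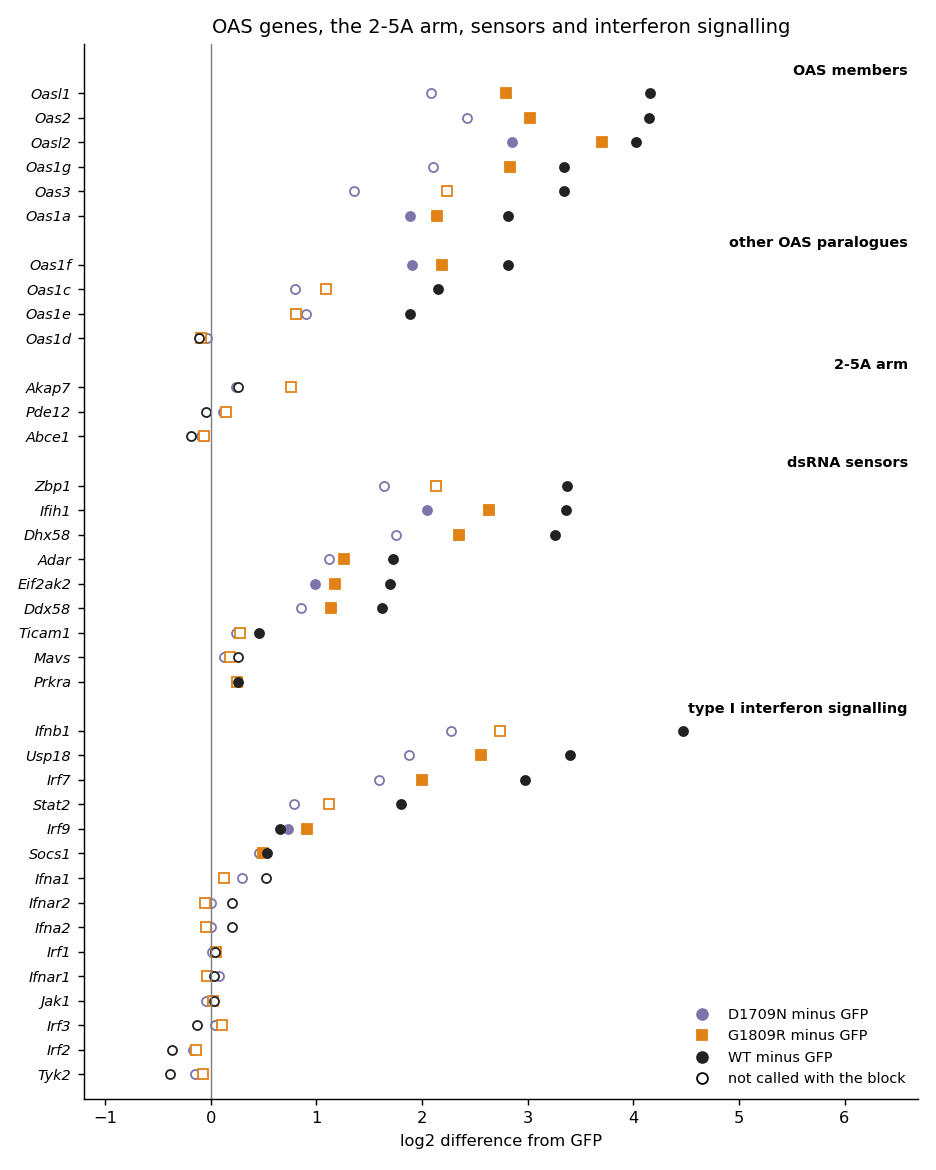
Log2 difference from GFP for D1709N, G1809R and WT, by gene and group of genes; filled symbols passed limma with the replicate block (adjusted p under 0.05). The OAS genes lie between 1.35 and 4.16, the 2-5A arm between −0.19 and 0.76, and Oas1d near 0.

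The nearest other protein-coding genes on the chromosome were 4 in number, 2 of them tested. Dtx1 differed by 0.22 ± 0.46 between WT and GFP. 2210016L21Rik rose with the block by 0.34 ± 0.13 (adjusted p = 0.00823), and by 0.34 (0.0281) without WT replicate 1.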

How the data were processed

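RNA input of 100 ng per sample was labelled with Cy3, per the labels' protocols, and per the file headers the scans were read by Agilent Feature Extraction 11.0.1.1. The deposited scanner files give background-subtracted spot intensities, with no scaling between arrays, per the file headers. A deposited table of log2 values for 31362 probes served as an alternative. The scaling behind its log2 values remains unknown, although all 12 columns share the maximum 18.9, and their medians lie between 9.40 and 9.42.

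From the intensities, log2 values were taken and each array's 75th percentile was subtracted. Control spots were left out, spots of 1 probe were averaged without those marked as outliers, and 287 of 55681 probes were dropped for such marks. No probe was saturated. Kept probes were those that 1 or more groups showed well above background on all 3 arrays; each gene was then read from its highest probe by mean, which left 24184 genes. All comparisons were fitted in 1 model over 12 arrays with limma 3.58.1 (lmFit, contrasts.fit, eBayes) in R 4.3.3, with data.table (version 1.17.8), and p-values were adjusted by Benjamini-Hochberg over all genes of a comparison. Tests are two-sided, and errors of differences are SEs of the limma fit without the block. The number of arrays limits the precision, and no sequencing depth applies. The procedure was tested on simulated data.

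Deviations from the group means correlated at 0.601 to 0.853 between arrays of different groups with the same replicate number, and at −0.675 to 0.197 otherwise. The replicate numbers, which come from the sample titles, therefore pair the arrays, and results are also given with the replicate block. The normexp alternative used the spot's median intensity, because the files hold no mean. The other alternatives were the slide as a block, quantile normalization, no filter on dim probes, the mean of a gene's probes, fewer groups or slides, and leaving out arrays. Fits of the other lists without WT replicate 1 or with normexp, blocked fits with arrays left out, and leaving out all arrays of 1 replicate number, were chosen after seeing the data.

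The members and gene lists were chosen with earlier results of these data known. Named are all members with each probe, members of the lists of other OAS paralogues, the 2-5A arm, sensors, interferon signalling, markers and chromosomal neighbours, and the 5 genes whose levels were most like the members' mean. Promoter sequences and symbols are RefSeq's; no probe carried an accession of Oas1b, and the lists' Ifna4, like Tlr3 and Oas1h, did not pass the filter. Some genes of these lists are not reported here, and the lists' counts leave them out.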

Additional observations from a re-analysis of the deposited data

How the results depend on the processing

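No called difference of an OAS gene changed direction. The differences of Oas1g and Oasl2 for G1809R minus WT, which were not called, lay above 0 without WT replicate 1. They were 0.13 and 0.14 without the block, and 0.20 and 0.54 with it. Counts of the 6 OAS genes called moved most. For WT minus GFP, where 1 was called, the replicate block gave 6, the slide as a block 5, the deposited values, normexp and quantile normalization 2 each, and 0 were called without the filter on dim probes, with only the groups compared and on slide 2 alone. The share of all genes called higher moved with these counts: it was 1.19% as reported, 9.18% with the replicate block, 4.24% with the slide as a block, 1.16% in the deposited values, 1.28% with normexp, 0.968% with quantile normalization, 0.23% without the filter, 0% with only the groups compared and 0.00408% on slide 2 alone. Fits leaving out 1 or more arrays called 0 to 4 without the block and 3 to 6 with it. The replicate block gave 2 for D1709N minus GFP, 5 for G1809R minus GFP and 2 for D1709N minus WT, where none was called without it, and 0 for the 2 other comparisons. Leaving out arrays under the block gave 0 to 5, 0 to 6 and 0 to 4 for these, and 0 to 1 for G1809R minus WT. The share of all genes called is not given for blocked fits with arrays left out.

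The median for D1709N minus GFP was 1.89 with normexp, 2.26 with only the groups compared, 2.18 on slide 2 alone, and 1.51 to 2.63 with arrays left out. For G1809R minus GFP it was 2.38 with normexp, 2.96 on slide 2 alone and 2.14 to 3.34 with arrays left out. For D1709N minus G1809R it was −0.46 with normexp, −0.70 with quantile normalization, −0.70 with the deposited values and −1.23 to −0.15 with arrays left out. The cause of these shifts was not tested. Over single genes, OAS and others of the lists, 1692 values kept their side of the threshold, 48 passed it newly and 112 lost it. Leaving out an array leaves its group with 2, and a limit of the array is signal over background, which bounds Oas1g, Oas3 and Ifnb1 with GFP.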
